A study of Mus musculus with 6 samples.

Results

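Txnip, its alpha-arrestin relatives Arrdc1 to Arrdc4, the glucose-sensing factors Mlxip and Mlx, and Klf10 were followed in mouse CD4 T cells differentiated towards the Th17 type with or without the glucose analogue 2-deoxyglucose (2DG). The 8 genes were chosen by symbol, with earlier results of these data known. Each matched a locus of its own among the 23203 loci of the deposited expression table. Naive CD4 T cells of unstated strain and age were cultured for 48 h on plates coated with anti-CD3e at 10 µg/ml, with anti-CD28 at 1 µg/ml, IL-6 at 20 ng/ml, TGFb1 at 2.5 ng/ml and IL-23 at 10 ng/ml. The 3 libraries of the vehicle group came from cells given DMSO and the 3 of the 2DG group from cells given 250 µM 2DG, so both groups share the antibodies and cytokines, and they represent 1 dose at 1 time. Titles carry the numbers 17, 42 and 43 in both groups, called replicates 1, 2 and 3 here, and no label says whether these are animals, cultures or runs. P-values therefore rest on library-to-library spread, and that spread may be technical.

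Alpha-arrestins are adaptor proteins that bring ubiquitin ligases of the NEDD4 family to membrane proteins, which are then taken up and degraded. TXNIP, encoded by Txnip, also binds thioredoxin and restrains glucose uptake through the transporters encoded by Slc2a1 and Slc2a4. MondoA, encoded by Mlxip, and its relative ChREBP, encoded by Mlxipl, pair with MLX, gather in the nucleus when hexose phosphates accumulate and switch on Txnip and Arrdc4 through paired E-boxes called carbohydrate response elements. In cultured cell lines MondoA also responds to 2DG, which hexokinase phosphorylates. KLF10 is a zinc finger repressor first known as a TGF-beta inducible gene, and its gene is a ChREBP target in rodent hepatocytes.

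The windows before the starts of Txnip, Arrdc4 and Arrdc2 are printed because these are 3 of the 4 members whose groups did not overlap in level; the table of windows held none for the other, Klf10. They are RefSeq sequences on GRCm38.p6, read 5′ to 3′ along each gene's strand from 250 bases before to 50 bases after the start. Txnip lies at chr3:96557707-96558006 on the plus strand, Arrdc4 at chr7:68749189-68749488 on the minus strand and Arrdc2 at chr8:70839671-70839970 on the minus strand. Capitals mark matches on either strand to CACGTG (the E-box that MLX dimers bind), CCAAT (the NF-Y box, ATTGG on the other strand), GTAAACA (a forkhead box) and a pair of CACGNG boxes in the same direction with 5 bases between them. The pair was added to the search after the windows had been read. So was the same pair with its second box inverted, which matched no window of the members and 0.0457% of all windows.
Txnip: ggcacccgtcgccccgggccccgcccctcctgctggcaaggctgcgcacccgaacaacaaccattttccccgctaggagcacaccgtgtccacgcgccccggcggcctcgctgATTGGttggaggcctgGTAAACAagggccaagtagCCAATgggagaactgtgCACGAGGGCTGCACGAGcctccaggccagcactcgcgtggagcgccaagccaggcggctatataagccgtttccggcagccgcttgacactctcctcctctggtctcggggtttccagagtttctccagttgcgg
Arrdc4: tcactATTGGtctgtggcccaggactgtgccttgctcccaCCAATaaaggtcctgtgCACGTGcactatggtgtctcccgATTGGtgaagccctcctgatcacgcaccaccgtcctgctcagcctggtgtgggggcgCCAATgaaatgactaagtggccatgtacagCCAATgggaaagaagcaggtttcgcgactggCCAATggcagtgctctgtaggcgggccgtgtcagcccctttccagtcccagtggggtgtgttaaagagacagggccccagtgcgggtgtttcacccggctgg
Arrdc2: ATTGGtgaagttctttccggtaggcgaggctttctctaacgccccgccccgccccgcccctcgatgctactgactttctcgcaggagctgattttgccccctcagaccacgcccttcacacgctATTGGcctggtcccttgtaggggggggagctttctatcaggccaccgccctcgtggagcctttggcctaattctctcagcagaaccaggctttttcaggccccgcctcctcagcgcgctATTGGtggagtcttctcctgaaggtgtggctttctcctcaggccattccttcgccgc
Counting the start as 0, the Txnip window held the pair at -85 to -69, a forkhead box at -121 to -115 and CCAAT boxes beginning at -137 and -102, and no CACGTG. The pair was in 0.0487% of the 32851 windows, and the human TXNIP promoter is known to carry a carbohydrate response element made of such a pair. CCAAT was in 37.4% of windows and the forkhead box in 3.65%. The Arrdc4 window held CACGTG at -193 to -188, a sequence in 7.15% of windows, and 6 CCAAT boxes, which 0.0791% of windows reached. The Arrdc2 window held 3 CCAAT boxes, and 3.37% of windows held 3 or more; it held no E-box. Among the other matched members, Mlx held CACGTG at -40 to -35, and Arrdc1 held none of the motifs searched. The start of the Arrdc1 window was not found in GENCODE transcripts of the gene, so its place is less certain. A pair of perfect E-boxes with the same spacing was in 0 of the 32851 windows. A match describes letters, not binding.

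**Figure D1:**
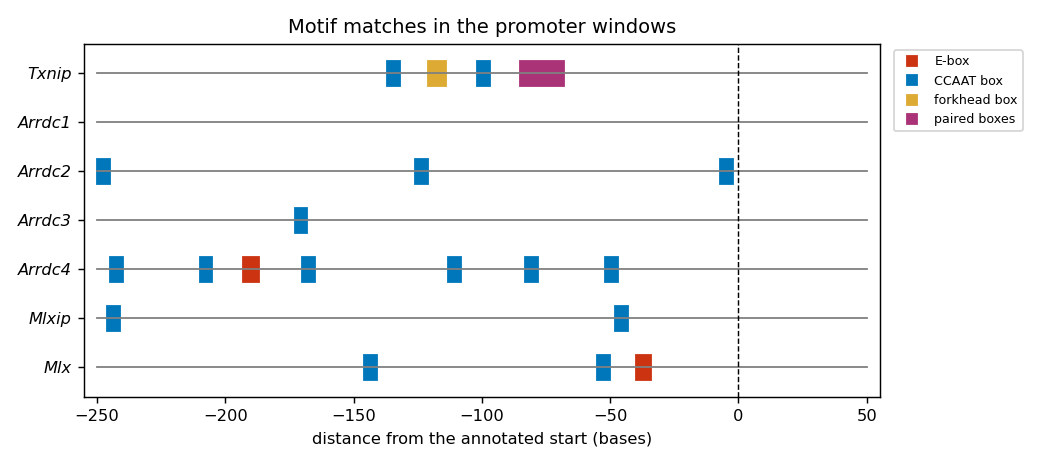
Motif matches in the windows of 7 members, plotted by distance in bases from the annotated start. The paired boxes appear in Txnip, and Arrdc4 carries 6 CCAAT boxes and an E-box.

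Expression was given as FPKM, a fragment count divided by transcript length and by the fragments mapped, which sets levels of different genes on a per-length scale. Differences were tested on log2(FPKM + 1) with limma for 10228 loci averaging 1 FPKM or more, with Benjamini-Hochberg adjustment over all of them and a threshold of 0.05. T cell genes were high (Cd3e 42.8 to 56.3 and Cd4 82.3 to 107.5 FPKM over the 6 libraries). Summed markers of CD8 T cells lay at 2.68 to 3.31 FPKM in vehicle and 2.91 to 5.51 with 2DG, of B cells at 0.62 to 3.71 and 0.0945 to 2.25, and of macrophages and monocytes at 1.5 to 4.64 and 1.19 to 3.32. Those of NK cells (Klrb1c at 0) lay at 1.26 to 2.08 and 0.655 to 1.39, of dendritic cells at 0.408 to 0.553 and 0.294 to 1.34, and of granulocytes and mast cells (Cpa3 and Mcpt4 at 0) at 0.171 to 0.906 and 0.0675 to 1.02. The erythroid markers found were at 0. Of all these markers only Cd8b1, Klre1, Cd68 and Lyz2 reached the level tested, and none of them passed. The part of other cell types in the results was not tested. Replicate 1 stood apart in both groups, since Rn45s, the ribosomal RNA precursor, was at 12874 FPKM in vehicle replicate 1 and 7186 in 2DG replicate 1 and at 0 in the other 4 libraries. Read depth is unknown; steps between low values gave a rough relative depth of 0.418 to 1.11 times that of vehicle replicate 1.

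With 2DG, Txnip, Arrdc4 and Klf10 had mean levels 1.57, 3.31 and 1.42 times those of vehicle, and Arrdc2 0.764 times, with no overlap between groups, but none of the 8 members passed the adjusted test. Among all loci tested, 278 of 10228 passed, or 2.72%, and 23.7% of loci had groups that did not overlap, against 4 of the 8 members. An unadjusted limma p under 0.05 was reached by 17.9% of loci and by the same 4 members. Arrdc4, 1 of the 4, reached the minimum mean for testing only through its 2DG libraries, so these counts of members are given as a description and not read against the shares of all loci. With robust eBayes fitting, 247 of the 10228 loci passed as higher and 199 as lower. Klf10 was the 1 member that passed there (limma adjusted p = 0.0495). The median log2 fold change of the members was -0.05, and that of all loci tested was -0.01. In bulk libraries fewer cells of a type and less RNA per cell cannot be told apart.

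**Figure D2:**
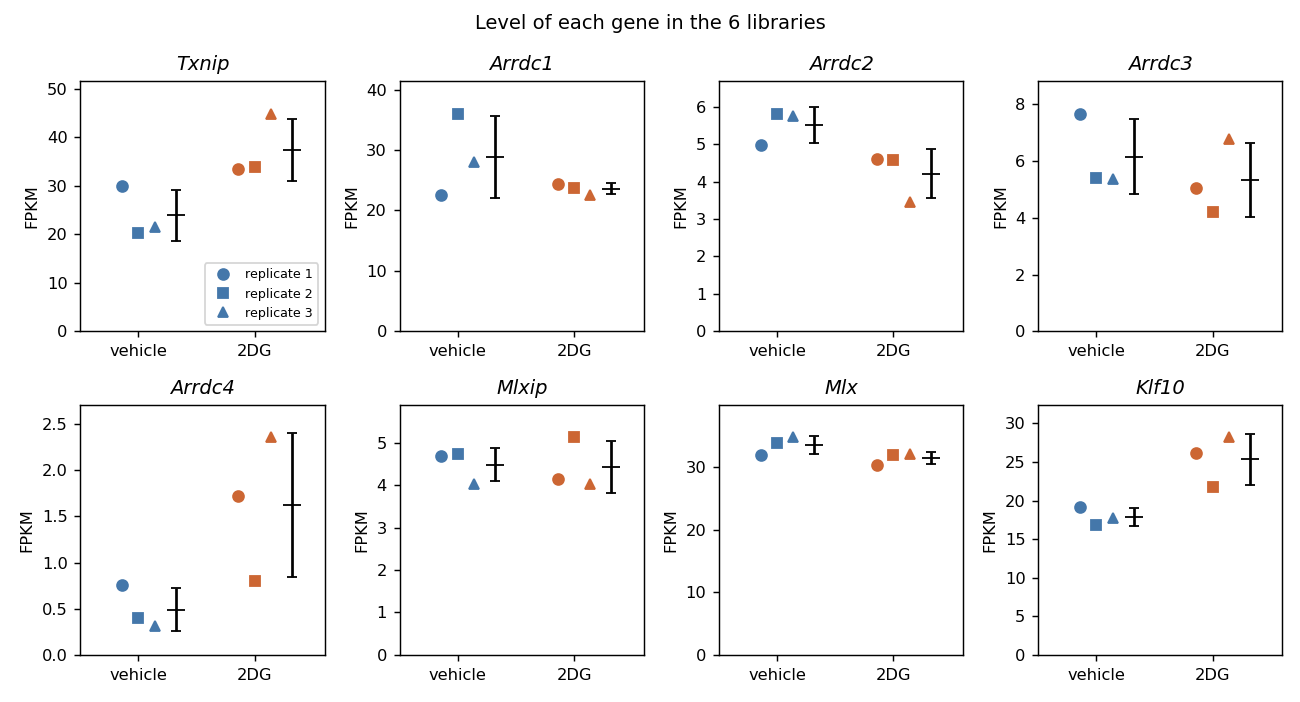
FPKM of each member in the 3 vehicle and 3 2DG libraries, with group means and SD. Txnip, Arrdc4 and Klf10 lie higher in every 2DG library than in every vehicle library, Arrdc2 lies lower, and the other members overlap.

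The groups overlapped for both sensor genes. Mlxip, the MondoA gene at chr5:123394798-123457932, stood at 4.68, 4.73 and 4.04 FPKM in vehicle replicates 1 to 3 and at 4.14, 5.13 and 4.02 with 2DG. The log2 fold change was -0.02 ± 0.12 (SE; 95% interval -0.30 to 0.27; limma adjusted p = 0.959). Mlx, the obligate partner of both Mondo factors (chr11:101087277-101092207), stood at 31.99, 33.9 and 34.8 FPKM in vehicle and at 30.3, 31.96 and 32.1 with 2DG. Its log2 fold change was -0.09 ± 0.07 (SE; interval -0.26 to 0.08; limma adjusted p = 0.577). The 3′ end of Mlx overlaps Psmc3ip on the other strand, whose reads cannot be told apart without strand. Mlxipl, the ChREBP gene, was listed at 0 in 5 libraries and at 0.0225 FPKM in 2DG replicate 1, a level at which an FPKM estimate may also have failed.

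Txnip, the best known target of these sensors, lies on the plus strand of GRCm38 at chr3:96557957-96561883. Its level was 30.0, 20.1 and 21.5 FPKM in vehicle replicates 1 to 3, and 33.4, 33.8 and 44.8 FPKM with 2DG. Every 2DG library exceeded every vehicle library, with 3.48 FPKM between the highest vehicle and the lowest 2DG library. The means were 23.9 ± 5.32 and 37.3 ± 6.48 FPKM (SD, n = 3), a log2 fold change of 0.63 ± 0.18 (SE) with a 95% interval of 0.22 to 1.05. The limma p was 0.00833 before and 0.119 after adjustment. In replicate 1, where Rn45s was high, the log2 difference was 0.15, from 1 library of each group and without an error. A fit of replicates 2 and 3 alone gave 0.87 ± 0.16 (limma adjusted p = 0.111). The antisense gene Gm15441 spans the whole of Txnip. Its own locus was listed at 0.767, essentially 0 and 1.35 FPKM in vehicle and at 0.310, 0.335 and 0.141 with 2DG, below the level tested. The use of strand is not given in the sources used here, so reads of Txnip and Gm15441 cannot be told apart.

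Arrdc4, the other alpha-arrestin that MondoA and ChREBP are known to switch on, lies at chr7:68736995-68749241 on the minus strand. It was the lowest member, at 0.757, 0.405 and 0.311 FPKM in vehicle and 1.72, 0.797 and 2.36 FPKM with 2DG. The groups were apart by only 0.0398 FPKM, and the gene reached the minimum mean only through the 2DG libraries. The log2 fold change was 0.78 ± 0.26 (SE; interval 0.18 to 1.38; limma adjusted p = 0.173), and with a pseudocount of 0.1 in place of 1 it was 1.498 (adjusted p = 0.172). At such levels the pseudocount moves the size of the change by more than 1.5 times.

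The other 3 expressed alpha-arrestins had lower means with 2DG, and none passed the test. Arrdc1, which recruits ESCRT proteins and buds vesicles from the plasma membrane (chr2:24925352-24935252), stood at 22.6, 36.0 and 27.96 FPKM in vehicle and 24.4, 23.7 and 22.6 with 2DG. Its vehicle libraries spread with a coefficient of variation of 23.5%, against 3.85% with 2DG, and the groups overlapped. The log2 fold change of -0.26 ± 0.16 (limma adjusted p = 0.456) was -0.09 without vehicle replicate 2 and -0.42 without vehicle replicate 1.

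Arrdc2, at chr8:70835129-70839720, stood at 4.96, 5.81 and 5.75 FPKM in vehicle and at 4.60, 4.57 and 3.45 with 2DG. Its groups were apart by 0.362 FPKM, and the log2 fold change was -0.33 ± 0.13 (interval -0.63 to -0.02; limma adjusted p = 0.247). Arrdc3, an adaptor for beta-adrenergic receptors and integrins (chr13:80883384-80896042), stood at 7.67, 5.41 and 5.38 FPKM in vehicle and 5.04, 4.203 and 6.78 with 2DG, and overlapped. Its log2 fold change was -0.18 ± 0.19 (limma adjusted p = 0.680). Arrdc5 was listed at 0 in all 6 libraries.

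Set by replicate, the log2 difference of Arrdc1 was 0.11 in replicate 1 and -0.44 in replicates 2 and 3, and that of Arrdc2 was -0.09 and -0.45. For Arrdc3 the values were -0.52 and -0.01, and for Arrdc4 0.63 and 0.86. Each replicate 1 value sets 1 library against 1 library and carries no error. Whether sizes differed between the replicate 1 libraries, with high Rn45s, and the others was therefore not tested. Arrdc2 and Arrdc4 kept 1 direction, and Arrdc1 and Arrdc3 did not. By the levels above, Arrdc3 was lower with 2DG in replicates 1 and 2 and higher in replicate 3. Its value near 0 for replicates 2 and 3 is therefore a mean of opposite differences.

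Klf10, on the minus strand of chromosome 15 at chr15:38291463-38300706, stood at 19.2, 16.8 and 17.8 FPKM in vehicle and 26.2, 21.7 and 28.2 with 2DG. The lowest 2DG library lay 2.57 FPKM above the highest vehicle library. Means were 17.9 ± 1.17 and 25.4 ± 3.31 FPKM (SD, n = 3), and the log2 fold change was 0.47 ± 0.11 (SE; interval 0.21 to 0.73; limma adjusted p = 0.0776). With robust eBayes fitting the adjusted p was 0.0495. The log2 difference was 0.43 in replicate 1 and 0.49 ± 0.15 in replicates 2 and 3.

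**Figure D3:**
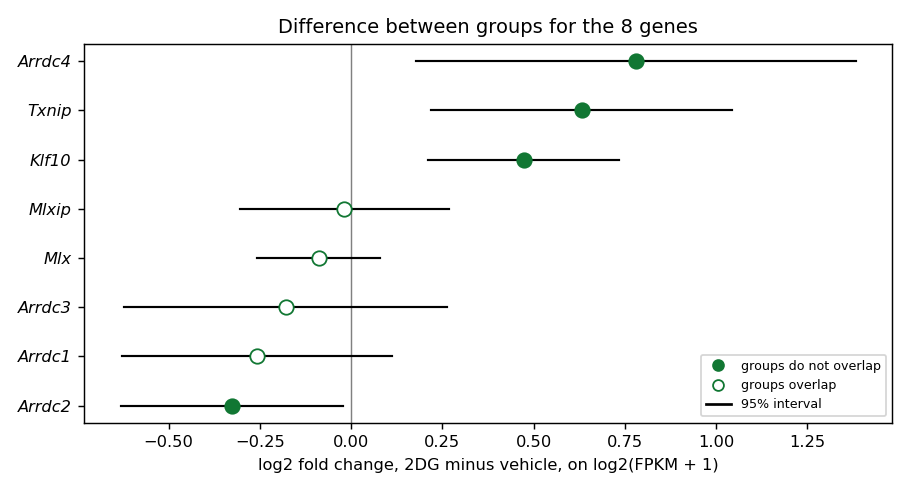
Log2 fold change, 2DG against vehicle, on the log2(FPKM + 1) scale for the 8 members, with 95% intervals from limma. The intervals of Txnip, Arrdc4, Klf10 and Arrdc2 leave out 0, before adjustment over all loci, and those of the other 4 members include it. Arrdc4 reached the minimum mean for testing only through its 2DG libraries.

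Because FPKM is per length, the members can be ranked within a group. In vehicle the order was Mlx (33.5), Arrdc1 (28.9), Txnip (23.9) and Klf10 (17.9 FPKM), whose neighbours' mean ± SD overlapped, then Arrdc3 (6.15), Arrdc2 (5.51), Mlxip (4.48) and Arrdc4 (0.491). Klf10 was 2.91 times Arrdc3, beyond their spread, while Arrdc3 and Arrdc2 did not differ beyond theirs. With 2DG, Txnip (37.3) and Mlx (31.5) came first without differing beyond their spread, and Klf10 (25.4) and Arrdc1 (23.6) likewise followed. Arrdc3 (5.34), Mlxip (4.43) and Arrdc2 (4.21) formed the next group, and Arrdc4 (1.63) was again lowest.

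The balance within the family was compared as a percentage, which does not depend on scaling between libraries. The Txnip percentage of the summed alpha-arrestin FPKM was 45.4, 29.7 and 35.3 in vehicle and 48.3, 50.4 and 56.0 with 2DG, means of 36.8% ± 7.98 and 51.6% ± 3.99 (SD, n = 3). The groups did not overlap, and the exact two-sided permutation p of 0.1 is the smallest that 3 against 3 libraries allow. Because the Txnip level is the numerator, the percentage is not a separate result beside that level. The share of Arrdc1 averaged 44.4% ± 9.54 in vehicle and 32.95% ± 4.07 with 2DG. Its groups overlapped, with 34.2% in vehicle replicate 1 and 35.3% in 2DG replicates 1 and 2. Shares of the same sum are not independent, so this is not a separate result beside that of Txnip. The summed level itself was 60.9 to 67.8 FPKM in vehicle and 67.0 to 80.0 with 2DG.

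Within the groups, 1 library each stood at the edge for several members. Vehicle replicate 1 was highest of its group in Txnip, Arrdc3, Arrdc4 and Klf10 and lowest in Arrdc1 and Arrdc2, and 2DG replicate 3 held the same places in its group. Across the 6 libraries, which form 2 groups of 3, Pearson's r with Txnip was 0.918 for Klf10, 0.907 for Arrdc4, 0.188 for Arrdc3, -0.836 for Arrdc1 and -0.973 for Arrdc2. Among 9136 single-gene loci the 5 most like Txnip were Stt3b (r = 0.996), Serpinf1 (0.993), Acot2 (0.992), Slc29a3 (0.991) and Dock11 (0.991). Zfx (0.992) and Pole4 (0.992) were most like Klf10. These are descriptions over 6 libraries that share their groups and scaling.

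**Figure D4:**
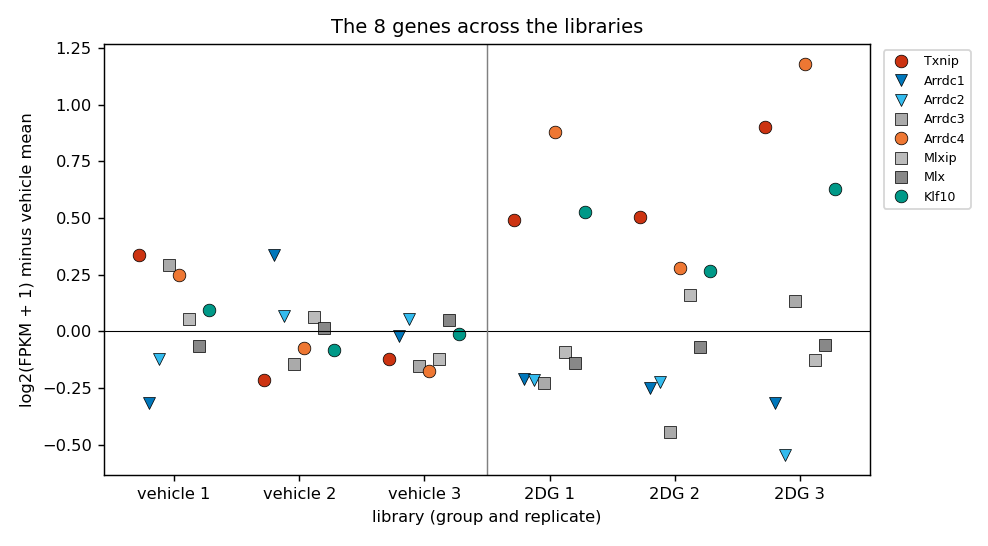
Log2(FPKM + 1) of each member in each library, minus its vehicle mean. Vehicle replicate 1 and 2DG replicate 3 stand highest within their groups for Txnip, Arrdc3, Arrdc4 and Klf10.

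Genes around the members were read from lists of related function. With replicates 2 and 3 only, Vps37b and Il17a were the genes of these lists that passed. The 15 tested genes listed as ChREBP or MondoA targets include the members Txnip, Arrdc4 and Klf10. Of the 15, 1 passed as higher, 2 as lower and 12 did not pass, with a median log2 fold change of -0.05. An unadjusted limma p under 0.05 was reached by 7, and 4 passed with robust fitting, Klf10 among them. Across all loci tested 2.72% passed with limma, and 17.9% had an unadjusted p under 0.05. As Arrdc4 entered only through its 2DG libraries, the counts are a description. Rgs16, a regulator of G protein signalling, rose from 20.7, 22.8 and 30.0 FPKM to 59.5, 78.4 and 47.2, a log2 fold change of 1.28 ± 0.20 (limma adjusted p = 0.0235). It did not pass without vehicle replicate 1 or 2 or without 2DG replicate 1 or 2, when the adjusted p reached 0.0899. Scd1, a fatty acid desaturase, fell from 36.2, 34.5 and 32.03 FPKM to 15.2, 18.5 and 14.4, by 1.06 ± 0.11 on the log2 scale (limma adjusted p = 0.00653), and passed without each library in turn. Elovl6, a fatty acid elongase, fell from a mean of 10.6 to 7.07 FPKM (limma adjusted p = 0.0458) but passed without 2DG replicate 3 only. Lipogenic genes of this list are also targets of other regulators, such as SREBP.

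Of 10 tested genes of the Mondo and MLX network, none passed with limma, 2 had an unadjusted p under 0.05 and 1 passed with robust fitting. Mxd1 and Mxi1, repressors that compete with MYC for MAX, had log2 fold changes of -0.67 ± 0.15 and -0.51 ± 0.13, with limma adjusted p of 0.0737 and 0.0925; with robust fitting that of Mxd1 was 0.0359 and it passed. In the thioredoxin system 1 of 15 passed: Prdx4, a peroxiredoxin of the endoplasmic reticulum, fell from 96.9, 81.9 and 69.6 FPKM to 48.5, 49.7 and 56.1 (log2 fold change -0.67 ± 0.13; limma adjusted p = 0.0464). Leaving out each library in turn, it passed without vehicle replicate 3 and did not pass in the other 5 fits. Among 10 tested TXNIP partners none passed with limma, 1 had an unadjusted p under 0.05 and 1 passed with robust fitting. The transcriptional repressor Zbtb32 came nearest, at means of 24.6 and 37.1 FPKM (limma adjusted p = 0.0599), and passed with robust fitting (0.0311) and after equal sums outside small RNA genes (0.0338). Hif1a, the hypoxia factor and next by p, had means of 306.6 and 238.6 FPKM (log2 fold change -0.36 ± 0.18; limma adjusted p = 0.357). Chosen after their values were seen, Slc2a1, the glucose transporter that TXNIP restrains, had means of 140.5 and 150.9 FPKM (limma adjusted p = 0.772), and Txn1, the thioredoxin that TXNIP binds, 447.9 and 399.0 FPKM (limma adjusted p = 0.491).

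The ligases and membrane machinery that alpha-arrestins work with each held 1 call, where 2.72% of all loci tested passed. Median log2 fold changes were -0.01 for the ligases and adaptors and -0.11 for the ESCRT genes. Nedd4, the name-giving ligase and 1 of 9 tested ligases and adaptors, fell from 15.3, 10.3 and 11.1 FPKM to 4.96, 4.66 and 5.83. The fall was 1.09 ± 0.16 on the log2 scale (limma adjusted p = 0.0185). Nedd4 did not pass without a filter (limma adjusted p = 0.0506), without vehicle replicate 3 or without 2DG replicate 1 or 2. Vps37b, a subunit of the ESCRT complex that binds TSG101, fell from a mean of 28.7 ± 8.91 to 6.68 ± 1.78 FPKM (limma adjusted p = 0.0136), as 1 of 8 ESCRT genes; without vehicle replicate 2 or 2DG replicate 2 the adjusted p was 0.0514 and 0.0574. The groups did not overlap for Nedd4 or Vps37b. Of 12 FOXO targets in T cells, Irs2 and Ccr7 fell (limma adjusted p = 0.0431 and 0.0486), each passing only without vehicle replicate 3 among the libraries left out in turn.

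**Figure D5:**
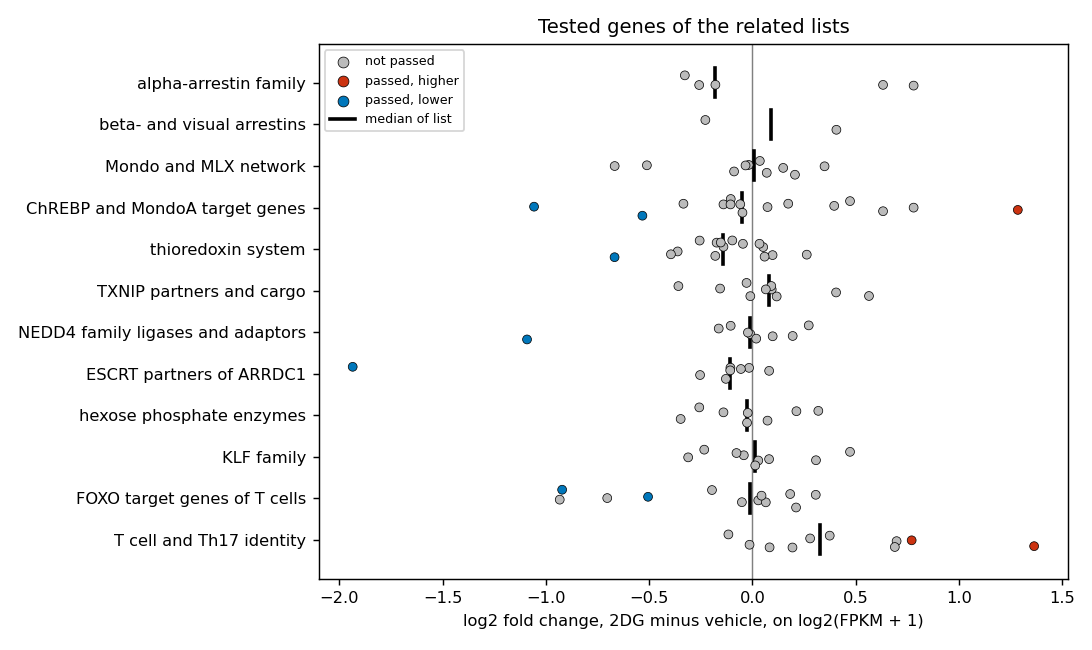
Log2 fold changes, 2DG against vehicle, of the tested genes in the lists around the members, with those past the adjusted threshold in colour, a bar at each list's median and vertical scatter for legibility. Vps37b, Nedd4 and Scd1 lie lowest while Rgs16 and Il17a lie highest.

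None of 8 tested hexose phosphate enzymes passed with limma or with robust fitting, and 1 had an unadjusted p under 0.05, with Pgm1 at -0.35 ± 0.11 and Gfpt1 at 0.21 ± 0.09 (log2 fold change ± SE; limma adjusted p = 0.150 and 0.294). Of 9 tested KLF genes none passed with limma, 2 had an unadjusted p under 0.05 and Klf10 passed with robust fitting; after Klf10, Klf9 was next at -0.31 ± 0.12 (limma adjusted p = 0.243). Beta-arrestins, relatives of the same fold, gave means of 19.9 and 26.8 FPKM for Arrb1 and 53.4 and 45.6 for Arrb2, with limma adjusted p of 0.480 and 0.344. Neither passed with robust fitting, and 0 of the 2 had an unadjusted p under 0.05. Of 10 T cell and Th17 identity genes 2 rose, Il17a by 1.36 and Rora by 0.77 on the log2 scale (limma adjusted p = 0.00315 and 0.0158). Il17a passed without each library in turn, and Rora did not pass without 2DG replicate 1 (adjusted p = 0.0562).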

How the data were processed

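The authors deposited 1 table that holds, per the file headers, FPKM values by locus for each library. Cuffdiff 2.2.1.3, Cuffnorm 2.2.1.1, TopHat2 2.1.0 and Cufflinks 2.2.1.0 with the mm10 build are listed in the submitters' processing notes. For annotation, strand use and scaling method the sources used here give nothing. The 75th percentiles lay at 10.9 to 11.6 FPKM in every library, so values were compared as scaled by the authors. Because FPKM are not counts, log2(FPKM + 1) was fitted with limma 3.58.1 in R 4.3.3 (group only, eBayes with trend, two-sided) for the 10228 loci that averaged 1 FPKM or more, and tested on simulated data. The pseudocount of 1 understates changes of low genes. Whole reads could not be recovered, so precision from depth is unknown. Genes of each list were named by smallest p: up to 4 past the threshold, otherwise up to 2. The members, lists and tests were chosen with earlier results of these data known. Alternatives covered pseudocount, filter, scaling, fitting, replicate block and each library left out. Gene positions are GENCODE M21 and promoter windows RefSeq, both GRCm38; proteins were not compared here. A further gene named by the likeness rule is not reported here. Figures used matplotlib 3.10.9 and Python 3.11.15.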

Additional observations from a re-analysis of the deposited data

How the results depend on the processing

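No member passed as lower under any alternative run, and 1 passed as higher with robust eBayes (Klf10, log2 fold change 0.47). Txnip kept its direction, between 0.50 and 0.87, with limma adjusted p of 0.0613 to 0.322, as did Klf10 between 0.40 and 0.58. Mlxip, near 0, changed sign to 0.0171 with equal sums outside small RNA genes and to 0.0456 with replicates 2 and 3 only, and ran from -0.11 to 0.04 without each library in turn (0.0087, 0.0149, 0.0189 and 0.0355 where positive); the cause was not tested. Across all loci, 156 higher and 122 lower calls became 100 and 65 without a filter and 247 and 199 with robust fitting. Equal sums gave 95 and 62, and equal sums outside small RNA genes gave 188 and 125. Small RNA genes made up 72.1% to 78.2% of the FPKM sum of a library. With replicates 2 and 3 only, where fewer libraries enter, the calls were 43 and 28. Leaving out each library in turn gave 52 to 98 higher and 25 to 69 lower. Libraries of the same number correlated in their deviations at -0.05, 0.19 and -0.11, and those of unlike number at -0.174 to 0.215. With 3 libraries per group these values cannot decide whether the numbers mark pairs. The main fit did not take them as pairs, although both replicate 1 libraries held Rn45s and had the lowest FPKM sums (1469420 and 1471759). With a replicate block, 57 and 44 loci were called, the adjusted p of Txnip was 0.168 and that of Klf10 0.0912, and the Txnip percentage differed by 14.8 (exact p = 0.25, the smallest possible). Under that block Rgs16, Elovl6, Prdx4, Nedd4, Vps37b, Irs2 and Ccr7 did not pass (limma adjusted p of 0.0543 to 0.111), while Scd1 (0.0286), Il17a (0.0215) and Rora (0.0335) did. The Txnip percentage difference ran from 11.2 to 19.1 without each library (exact permutation p = 0.2 each time, the smallest possible with 1 library left out). Arrdc4 fell below the filter with a minimum mean of 5, with replicates 2 and 3 only and without 2DG replicate 1 or 3. Depth is unknown, so small differences of Arrdc4 and Gm15441 cannot be given a counting error.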
